A study of Mus musculus with 3 samples.

Results

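Hematopoietic stem cells (HSCs) whose open-chromatin fragments were most often nucleosome-sized were compared with those whose fragments were least often so. Cells were chosen by their nucleosome signal, the number of ATAC fragments of 147 to 294 bp on chromosomes 1 to 19 divided by the number of shorter ones. Of 3757 called cells, 3108 had more than 3000 fragments in peaks. These were ordered by their signal and cut into 5 groups of equal size, of which the top 622 cells are called high-signal cells and the bottom 622 low-signal cells. The HSCs were LSKCD150+CD48-CD34- cells, sorted after c-Kit enrichment from bone marrow of wild-type C57BL6/J mice, female and 8 weeks old. DOGMA-seq read open chromatin, RNA and antibody tags from the same cells, and the ATAC and RNA libraries of this 1 preparation were used here. The number of mice behind the preparation is not given in the sources, and no condition was compared with another. All cells share this single source and do not stand for replicates. No test was therefore made, and the 95% intervals below cover counting error only.

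DNA in chromatin is wrapped around histone octamers. The transposase used in ATAC-seq cuts between them, so that short fragments come mainly from nucleosome-free stretches at promoters, enhancers and CTCF sites, and longer ones span 1 or more nucleosomes. The ratio of nucleosome-spanning to short fragments is a routine quality measure of single-cell ATAC-seq, and it also depends on how the DNA was cut and on how much of a cell's DNA lies in open regions. HSCs are largely quiescent and sit at the top of the blood hierarchy.

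The signal ran from 0.471 to 1.24 over the 3108 cells, with a median of 0.699. Low-signal cells lay between 0.471 and 0.639 (median 0.609) and high-signal cells between 0.764 and 1.24 (median 0.803). The cells on either side of the lower bound had 0.6390 and 0.6391, and those on either side of the upper bound 0.7639 and 0.7641, so the groups were cut from a continuous range. Measured separately on odd-numbered and even-numbered autosomes of the same cells and library, the signal had an r of 0.92 over 3108 cells, and of the 622 high-signal cells 548 were also in the top group on the odd autosomes alone and 558 on the even ones. Because all ATAC values come from the library that chose the cells, the main values below have beside them the value obtained when cells were ranked on the autosomes of 1 parity and measured on those of the other, called the value on other autosomes.

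The kept cells held 36439576 autosomal fragments. High-signal cells had a median of 12004 fragments (4223 to 194399) and low-signal cells 9990.5 (3977 to 49787). Levels in CPM are fragments per 1000000 autosomal fragments of the group. Of the HSC markers, the promoter windows of Hlf held 39.9 CPM in high-signal and 47.9 in low-signal cells and those of Kit 27.1 and 32.1. Other HSC markers were near the floor at their annotated starts, with 2 fragments and none at Mecom, 5 and 8 at Ly6a and 17 and 26 at Slamf1, so the label rests on few of these promoters. Defining markers of other cells were low at their promoters in both groups, with Cd3e at 1 fragment and none, and Ms4a1 and S100a9 at none in either. Summed promoter levels in CPM were 12.3 in high-signal and 12.4 in low-signal cells for the 6 B cell markers, 4.43 and 4.23 for the 6 T cell markers, 11.7 and 10.8 for the 8 granule markers, 8.37 and 5.95 for the 6 erythroid markers found of 7, 24.9 and 24.6 for the 6 monocyte and macrophage markers, 20.6 and 23.8 for the 5 endothelial markers and 14.8 and 13.9 for the 5 stromal markers. Higher sums were seen for the 7 HSC markers, at 82.1 and 104, and for the 6 megakaryocyte markers, at 59.1 and 74.9, mostly at Pf4, Itga2b and Gp9. Barcodes with more sites covered by over 2 fragments than expected, a mark of doublets, were 61 of 622 high-signal cells (9.81%, 7.58 to 12.4) and 35 of 622 low-signal cells (5.63%, 3.95 to 7.74). The expected number was the mean over all kept cells and was not adjusted for depth, which was higher at the median in high-signal cells. The part of depth in this difference was not tested.

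Sequence is shown for 4 distal sites, the 2 furthest up and the 2 furthest down in high-signal cells, taken from GRCm38 and written along the plus strand. Distal sites were tiles of 500 bp over 2000 bp from any annotated transcript start, and the 300 bases with the most midpoints over all kept cells are given for each. Capitals mark matches to the letters of 12 motifs, searched on both strands, so that a match to the minus strand appears as the reverse complement. The first 2 were higher in high-signal cells, both intergenic, 26 kb from the start of the predicted gene Gm11084 and 400 kb from that of Tox.

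chr2:73012631-73012930: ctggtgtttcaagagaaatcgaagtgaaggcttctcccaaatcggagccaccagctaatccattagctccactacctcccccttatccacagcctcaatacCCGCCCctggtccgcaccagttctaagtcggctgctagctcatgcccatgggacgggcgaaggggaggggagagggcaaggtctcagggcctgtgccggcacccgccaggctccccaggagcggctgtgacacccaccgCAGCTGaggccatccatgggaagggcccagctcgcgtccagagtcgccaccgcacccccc

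chr4:7391701-7392000: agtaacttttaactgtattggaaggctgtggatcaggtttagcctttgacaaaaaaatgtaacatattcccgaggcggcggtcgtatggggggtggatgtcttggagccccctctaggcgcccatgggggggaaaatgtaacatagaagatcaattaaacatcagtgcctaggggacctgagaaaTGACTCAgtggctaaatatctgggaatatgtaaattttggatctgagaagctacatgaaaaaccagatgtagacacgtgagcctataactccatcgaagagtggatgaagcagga

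The other 2 were lower in high-signal cells, the first intergenic and 34.6 kb from the start of B4galt5, the second in an intron of Abca4.

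chr2:167383681-167383980: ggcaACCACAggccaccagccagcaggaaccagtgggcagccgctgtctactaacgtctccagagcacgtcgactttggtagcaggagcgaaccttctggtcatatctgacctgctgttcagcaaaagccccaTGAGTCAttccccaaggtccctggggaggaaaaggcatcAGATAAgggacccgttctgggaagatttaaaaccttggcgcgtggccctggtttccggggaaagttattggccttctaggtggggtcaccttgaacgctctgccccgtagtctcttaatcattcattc

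chr3:122078201-122078500: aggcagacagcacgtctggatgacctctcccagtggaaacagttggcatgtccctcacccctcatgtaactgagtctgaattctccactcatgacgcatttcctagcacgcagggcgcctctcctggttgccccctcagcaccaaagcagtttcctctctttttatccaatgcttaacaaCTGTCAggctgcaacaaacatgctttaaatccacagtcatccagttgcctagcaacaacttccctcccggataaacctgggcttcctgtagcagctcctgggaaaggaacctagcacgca

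In the first of these 2 the capitals are, in order, a RUNX match (TGTGGT, minus strand), an AP-1 match (TGANTCA) and a GATA match (AGATAA), while the second held a MEIS match (TGACAG, minus strand). Of the higher pair, the first held a KLF/SP (GGGCGG, minus strand) and an E-box match (CAGCTG) and the second an AP-1 match, so AP-1 letters occurred on both sides. Matches are letters in these windows and do not show that a factor was bound.

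The selection fixed fewer short fragments in high-signal cells, and among the longer fragments the 2 groups were close. By construction, fragments under 147 bp made up 41.6% of fragments in high-signal and 49.5% in low-signal cells, and those of 147 to 294 bp 34.4% and 29.8%. Fragments of 295 to 440 bp, the size of 2 nucleosomes, were 14.8% (14.78 to 14.83) and 13.0% (12.95 to 13.00), and 14.8% and 13.0% on other autosomes. Fragments of 441 to 587 bp were 5.37% and 4.62%, and fragments of 588 bp or more 3.78% and 3.05%. Since shares of one total move together, the longer classes were also taken as shares of the fragments of 147 bp or more. Of these, 25.4% (25.32 to 25.40) in high-signal and 25.7% (25.66 to 25.76) in low-signal cells were of 295 to 440 bp, 9.20% (9.17 to 9.22) and 9.16% (9.13 to 9.19) of 441 to 587 bp, and 6.47% (6.45 to 6.49) and 6.04% (6.02 to 6.07) of 588 bp or more. On other autosomes the last pair was 6.48% and 6.02%, and that of 441 to 587 bp 9.22% (9.19 to 9.25) and 9.13% (9.10 to 9.16). The longest class thus made up more of the long fragments of high-signal cells under both rankings, and the class of 441 to 587 bp under the second, by a small amount.

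The most frequent length among nucleosome-sized fragments was 159 bp in both groups, and that among short fragments 44 bp in both. In the dinucleosome class the most frequent length was 347 bp in high-signal and 335 bp in low-signal cells, on a nearly flat stretch of the curve with small ripples at 0.126% and 0.111% of fragments per bp, so the difference in position is not firm.

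**Figure D1:**
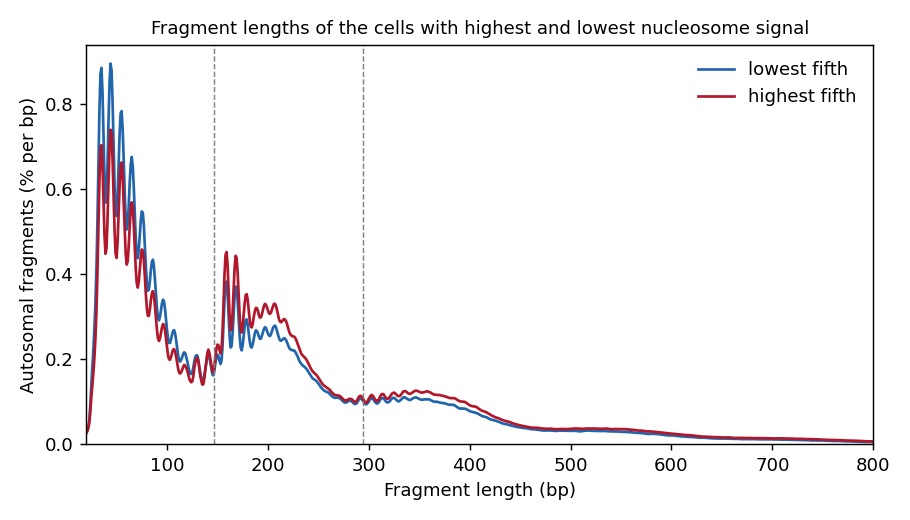
Share of autosomal fragments at each length (percent per bp, y axis, running mean over 5 bp) against fragment length (bp, x axis) for the 622 high-signal (red) and 622 low-signal (blue) cells; dashed lines mark the limits of the nucleosome signal at 147 and 294 bp. High-signal cells lie below low-signal cells at short lengths, with peaks of 0.740% and 0.896% per bp at 44 bp, and above them at 159 bp, at 0.452% and 0.383% per bp.

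The ratio of nucleosome-sized to short fragments, which chose the cells, is given by region as a description, since a higher ratio in high-signal cells is fixed by the selection. Around gene starts (500 bp to each side, protein-coding genes) the ratio was 0.468 against 0.387, a factor of 1.21. At the 50000 most covered distal tiles it was 0.592 against 0.443, a factor of 1.34. In the rest of gene bodies it was 1.25 against 0.913 and outside genes 1.47 against 1.09, factors of 1.37 and 1.35. On other autosomes the factors were 1.19, 1.31, 1.34 and 1.32 in the same order, where cells are still ranked on the same ratio, and gene starts had the smallest factor under either ranking.

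Fragments were also distributed differently between these regions. Promoter windows took 29.7% of fragments in high-signal and 34.3% in low-signal cells, and distal tiles 16.3% and 19.2%. The rest of gene bodies took 32.7% and 29.6%, and sequence outside genes 21.3% and 16.8%. On other autosomes the promoter shares were 29.8% and 34.3% and the shares outside genes 21.3% and 16.9%. Over the 5 groups of increasing signal the promoter share was 34.3%, 33.7%, 33.1%, 32.7% and 29.7%, with the widest step at the top.

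The share of fragments in the authors' peaks was lower as well. Of all fragments of high-signal cells 63.2% lay in peaks (63.16 to 63.23), against 72.5% of those of low-signal cells (72.43 to 72.50). Per cell, the median was 67.8% in high-signal cells (19.2 to 73.1, lowest to highest) and 73.5% in low-signal cells (27.0 to 79.9), and the quartile ranges, 65.7 to 69.2 and 71.9 to 75, did not meet. Over the 5 groups the medians were 73.5%, 71.8%, 70.6%, 69.7% and 67.8%. Fragments at transcript starts had medians of 50.6% and 53.9%.

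High-signal cells also included a tail of cells with few fragments in peaks. Under 60% in peaks were 70 of 622 high-signal cells (11.3%, 8.88 to 14) and 3 of 622 low-signal cells (0.482%, 0.0996 to 1.4), and in the 3 groups between them 4, 4 and 6 cells. The 70 cells had a median of 3220 UMIs and the other high-signal cells 3996.5. One barcode held 194399 fragments and 52809 UMIs, with 40.4% in peaks, and gave 2.34% of the fragments of the high-signal group. After the data were seen, 2 alternatives were therefore added: leaving out the tenth of each group with the lowest share in peaks, which gave a difference in peaks of -6.20 percentage points instead of -9.27, and ranking cells within 10 bins of the share in peaks, which gave -2.93. Values they give for the main results and for several genes are printed below.

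The RNA of the same cells, which did not enter the ranking, differed modestly. High-signal cells had a median of 3969 UMIs (1104 to 52809; interval of the median 3837 to 4074) and low-signal cells 3593.5 (301 to 10950; 3473 to 3692), a ratio of 1.10, and the quartile ranges, 3191 to 4903.8 and 2961.2 to 4436.5, overlapped. Summed UMIs were 2670095 (2666893 to 2673300) and 2377249 (2374228 to 2380273). Median genes detected were 2071 and 1915. The order did not extend to the top of the range, since the 5 groups had medians of 3593.5, 3837, 3861, 4033 and 3969 UMIs.

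This difference in UMIs depended on how cells were matched. Per 1000 ATAC fragments, high-signal cells had a median of 330 UMIs and low-signal cells 359. Ranked within bins of ATAC depth the ratio of UMIs was 1.06, and ranked within bins of the share in peaks it was 0.879, the opposite direction. The part of depth and of the share in peaks in the difference was not tested further.

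Intronic reads, which come mostly from unspliced nuclear RNA, made up less of the RNA in high-signal cells. Of all UMIs 46.4% were intronic in high-signal (46.30 to 46.42) and 49.2% in low-signal cells (49.12 to 49.25). Per-cell medians were 46.3% (29.0 to 63.3) and 49.7% (20.2 to 74.1), with 49.1%, 48.5% and 48.0% in the groups between, in order of signal. Exonic UMIs had medians of 2132 (2067 to 2198) and 1785.5 (1743 to 1834), whereas intronic UMIs had medians of 1799 (1749 to 1877) and 1780.5 (1732 to 1821), whose intervals overlap. Within bins of the share in peaks the difference in the intronic share was -0.473 percentage points, against -2.82 over all cells. Intergenic RNA reads had medians of 17.6% and 16.6% of mapped reads and antisense reads 21.6% and 22% of genic reads.

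**Figure D2:**
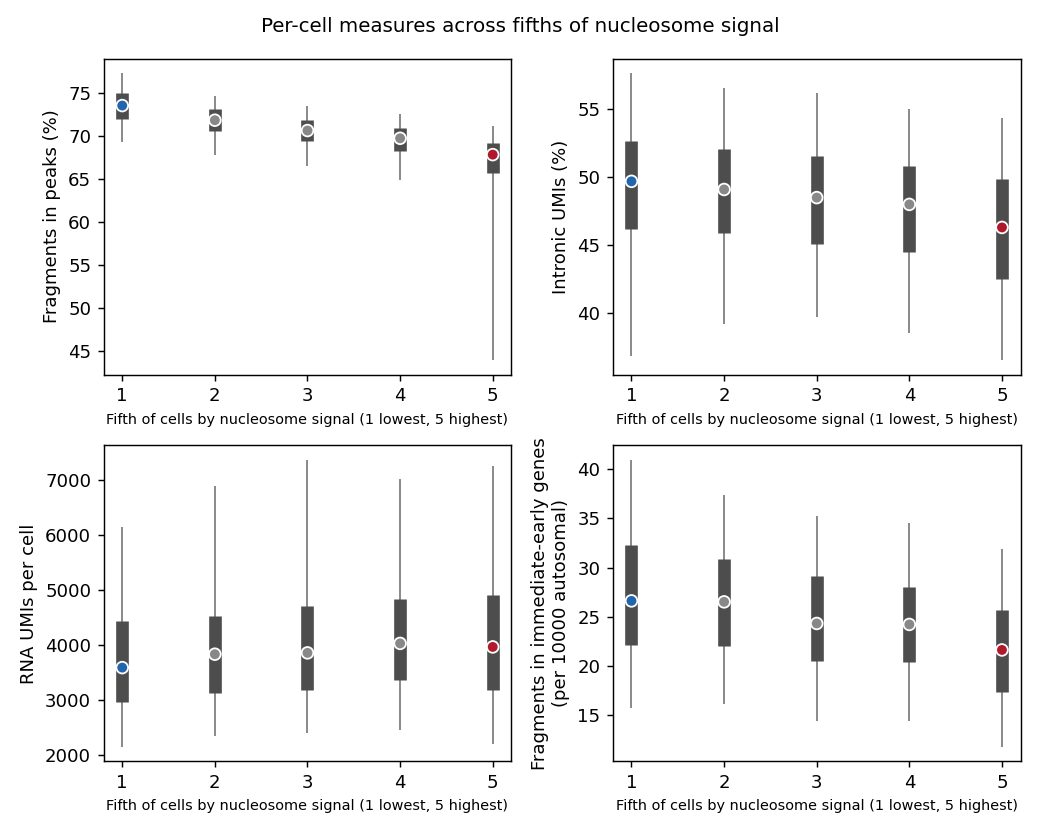
Per-cell values (y axes: percent of fragments in peaks, percent of UMIs that are intronic, RNA UMIs, and fragments in immediate-early genes per 10000 autosomal fragments) in 5 groups of 621 or 622 cells by increasing nucleosome signal (x axis); dots are medians, thick bars the quartiles, thin lines the 5th to 95th percentiles. The share in peaks goes down at each step from 73.5% to 67.8%, the lower end of its thin line reaches 43.9% in high-signal cells, and UMIs overlap across all 5 groups.

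Around 10406 active gene starts (those with at least the median number of promoter fragments), both groups had a nucleosome-free stretch with a nucleosome on each side. Densities are midpoints per bp, per 1000 sites and per 1000000 fragments of the same length class, so that the share of each class cancels. Short fragments peaked at 141 in high-signal cells, 37 bp upstream of the start, and at 147 in low-signal cells, 40 bp upstream. Nucleosome-sized fragments peaked at 58.2 in high-signal cells, 116 bp downstream, and at 68.5 in low-signal cells, 120 bp downstream. In the stretch at the start itself they were down to 24.3 and 31.9, so the downstream nucleosome stood 2.39 times over this trough in high-signal cells and 2.15 times in low-signal cells. On other autosomes the contrasts were 2.38 and 2.15, and within bins of the share in peaks 2.42 and 2.15.

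CTCF, the zinc finger protein that anchors chromatin loops, places nucleosomes in regular order around its motif. At 4963 matches in distal tiles (a pattern of 12 letters, both strands), short fragments peaked on the motif at 84.3 in high-signal and 76.8 in low-signal cells. The flanking nucleosome downstream lay at 130 bp with a density of 23.1 in high-signal cells and at 136 bp with 23.8 in low-signal cells. Over the motif, nucleosome-sized fragments were at 1.83 and 2.49, so the contrast of flank to motif was 12.6 and 9.57. The contrast was 12.7 and 9.72 on other autosomes and 12.4 and 10.5 within bins of the share in peaks. At both kinds of site, nucleosome-sized fragments of high-signal cells were relatively fewer over the nucleosome-free stretch.

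**Figure D3:**
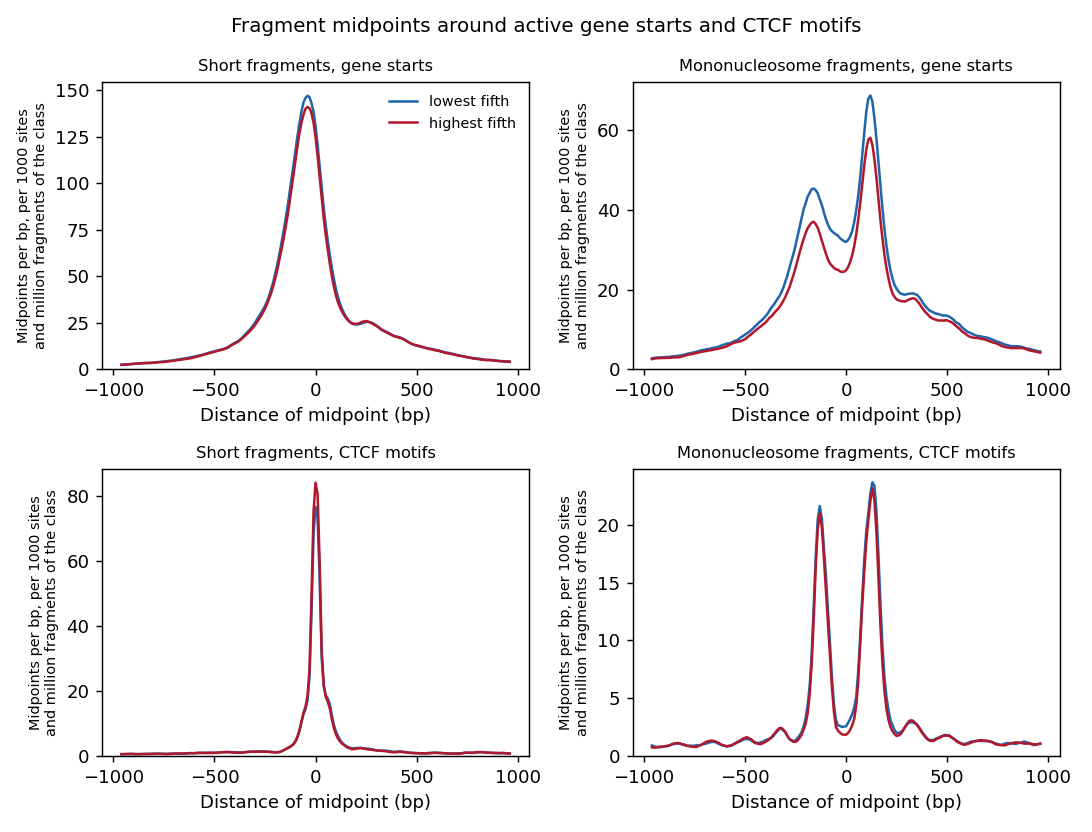
Density of fragment midpoints (y axes: per bp, per 1000 sites and per 1000000 fragments of the class; running mean over 41 bp) against the distance from the site (x axes, up to 960 bp to each side, downstream to the right) for short and nucleosome-sized fragments around active gene starts and CTCF motifs. High-signal cells (red) have a lower downstream nucleosome at gene starts, 58.2 against 68.5, and a higher short-fragment peak on CTCF motifs, 84.3 against 76.8.

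Promoters as a whole were less accessible in high-signal cells, and individual promoters lay close to that common shift. Fragments in promoter windows per autosomal fragment had a log2 ratio of -0.21 for high-signal over low-signal cells (-0.20 on other autosomes, -0.14 without the low shares in peaks, -0.04 within bins of the share in peaks). Counted on short fragments alone the ratio was -0.06, and on nucleosome-sized ones alone -0.25. Of 20807 promoters, 7640 had at least 200 fragments over both groups, with a median of -0.22 that was subtracted from each. Past 1.2-fold with an interval that left out 0 were 424 higher in high-signal cells (5.55%) and 490 lower (6.41%). Without subtracting the median, 30 were higher and 2627 lower. In 4 equal groups by GC content, promoters had centered medians between -0.01 and 0.01, so GC content did not order these medians. Within bins of the share in peaks the medians rose slightly with GC content, at -0.02, -0.01, 0.00 and 0.02. Lower promoters numbered 132, 134, 137 and 87 in the main comparison, in the same order.

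The 10 promoters furthest down in high-signal cells included an immediate-early gene and a gene that is also in the list of multi-lineage HSCs. The latter, Ctla2a, which encodes an inhibitor of cysteine proteases, had 9.48 CPM in high-signal and 26.5 in low-signal cells, a centered log2 ratio of -1.27 (-1.67 to -0.87), and the overlapping window of the predicted gene Gm49391 had -1.28 on nearly the same fragments. Nr4a1, an immediate-early nuclear receptor, had 28.3 and 56.5 CPM, or -0.78 (-1.03 to -0.54). Ptp4a2, a tyrosine phosphatase, had -0.97, Gstp2, a glutathione transferase, -0.93, Pomp, a proteasome assembly factor, -0.83, and Gna15, a G protein subunit of blood cells, -0.80. Lrrc74b had -0.86, Zfp623 -0.84 and Zpr1 -0.81. Within bins of the share in peaks these 10 promoters lay between -1.63 and -0.31. Named features had to keep their side on other autosomes, so their values there are no check of them.

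Of the 10 promoters furthest up, 9 lay between 0.68 and 0.77. Trim14, of the tripartite motif family, had 20.3 CPM in high-signal and 11.6 in low-signal cells, a log2 ratio of 1.02 (0.62 to 1.44), which was 0.26 within bins of the share in peaks. Rabl6, a Rab-like GTPase, had 0.77, Scrn2 0.73, Ajm1 0.69, and the cell adhesion gene Nectin1 0.68. Lzic and Nmnat1, the latter a nuclear NAD synthetase, are divergent genes whose windows overlap, and had 0.69 and 0.68 on nearly the same fragments. Nacc1 had 0.69 and 4930535I16Rik 0.68. The window of the predicted gene Gm10801, at 0.74, had 33.2% GC, the lowest of all tested promoters. More than 4 midpoints were found there in 10 cells, and at Nr4a1 in 12. Repeat-like windows were marked for tiles only, and no blacklist was applied. Within bins of the share in peaks the 9 promoters other than Trim14 lay between 0.17 (Nacc1) and 0.60 (Scrn2), with Gm10801 at 0.22 and Ajm1 at 0.31.

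Distal tiles had a similar common shift and a wider spread around it. Summed over 50000 tiles the log2 ratio was -0.24 (-0.23 on other autosomes), -0.17 on short fragments alone and -0.12 within bins of the share in peaks. Only 1319 tiles had at least 200 fragments, with a median of -0.35, and of these 159 (12.1%) were higher and 203 (15.4%) lower after centering, or 24 and 686 without it. Ranking within bins of the share in peaks, 106 of the 159 and 145 of the 203 were again past 1.2-fold on the same side. For promoters 172 of 424 and 250 of 490 were. On other autosomes 149 and 181 of the tiles were, which counts mostly the same cells and fragments and is no independent check. These counts ask for the fold alone, with no interval and no minimum in the second ranking. More than 4 midpoints in over 1 in 100 cells were found in 6 tiles, and all 6 were among the higher ones, with a median of 0.75.

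The tile near B4galt5 shown above had 7.51 CPM in high-signal and 25.4 in low-signal cells, a centered log2 ratio of -1.41 (-1.86 to -0.98). The tile in Abca4 had 16.5 and 46.8, or -1.16 (-1.46 to -0.86). A GC-rich tile on chromosome 2 (chr2:30712001-30712500), with an AP-1 and a CRE match, had 20.3 and 51.2, or -0.99, and tiles 147 kb from Jade1 and 44.8 kb from Gm5148 had -1.06 and -0.98. The tiles furthest up were those near Gm11084 and Tox shown above, at 1.11 (0.77 to 1.45) and 1.03 (0.60 to 1.48), then one 198 kb from Samd9l at 1.01, one in an exon of Prss22 at 0.96 and one 11.7 kb from Cfap126 at 0.96. All 10 kept their side within bins of the share in peaks, the lower ones between -1.36 and -0.59 and the higher ones between 0.29 and 1.24.

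Tiles grouped by the motif letters they held differed most for CRE and CTCF. The CRE letters (TGACGTCA), which CREB and ATF proteins bind, occurred in 322 tiles (0.644% of all), and the summed ratio of these was -0.49 (-0.52 to -0.45) against -0.24 for all tiles. AP-1 letters occurred in 8196 tiles (16.4%), with -0.33 (-0.34 to -0.32). CTCF matches occurred in 4889 tiles (9.78%), with -0.08 (-0.09 to -0.07) overall and 0.07 (0.05 to 0.08) on short fragments alone, where all tiles had -0.17. On other autosomes the values were -0.48, -0.32 and -0.08, and within bins of the share in peaks -0.32, -0.20 and 0.03 against -0.12 for all tiles.

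The other motifs lay nearer to the mean of all tiles. GATA letters (AGATAA, 22.8% of tiles) had -0.27, ETS letters (CGGAAG, 11.7%) -0.28, RUNX letters (TGTGGT, 39.1%) -0.27, E-box letters (CAGCTG, 28.1%) -0.26 and MEIS letters (TGACAG, 32.4%) -0.26. KLF/SP letters (GGGCGG, 15.5%) had -0.24, POU letters (ATGCAAAT, 2.19%) -0.25, NRF1 letters (GCGCATGC, 1.11%) -0.22 and YY1 letters (AAGATGGC, 2.93%) -0.18. At promoters the CRE letters again had the lowest ratio, -0.28 (-0.29 to -0.27) in 693 promoters (3.33%) against -0.21 for all, with 12 of 476 tested higher and 57 lower, where 5.55% and 6.41% of all promoters were. Within bins of the share in peaks these promoters were at -0.07 and all promoters at -0.04. The other 11 motifs lay between -0.22 and -0.19 at promoters. Tiles and promoters can hold several motifs and matches can overlap, so the groups are not separate.

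Over whole genes (body and 2000 bp upstream) the summed ratio was -0.07, and 13204 of 20807 genes had at least 200 fragments. After subtracting their median of -0.07, 1654 (12.5%) were higher in high-signal cells and 915 (6.93%) lower, and without it 1115 and 1788. Long genes made up most of the higher ones: 924 of the 1654 lay in the longest of 4 equal groups by length, over 66.1 kb, which had 67 lower genes and a median of 0.10 (0.03 within bins of the share in peaks and 0.04 on short fragments), while the shortest group, up to 11.7 kb, had 179 higher, 354 lower and a median of -0.06. Within bins of the share in peaks 705 genes were higher and 818 lower, and on short fragments alone 583 and 673. By the fold alone, with no interval and no minimum, 575 of the 1654 and 382 of the 915 kept their side within those bins.

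Immediate-early genes, the transcription factors and feedback regulators induced first after a stimulus, were lower in high-signal cells as a group. Of 20 listed genes all were tested, none was higher and 11 were lower, where 12.5% and 6.93% of all genes were, with a median of -0.28 against 0 for all genes (-0.28 on other autosomes, -0.23 without the low shares in peaks, -0.14 within bins of the share in peaks, -0.17 on short fragments). All 20 had a value under 0, from -0.80 to -0.04. Per cell, these genes held a median of 21.6 per 10000 autosomal fragments in high-signal cells (5.02 to 45.0) and 26.6 in low-signal cells (5.77 to 78.8), with 26.5, 24.3 and 24.2 in the groups between, in order of signal. The cells' ranges overlapped widely. The share of fragments at transcript starts was also lower in high-signal cells, and its part in the result was not tested beyond the matched values above.

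Single immediate-early genes ranged widely within that group. Nr4a1 had 146 CPM in high-signal and 266 in low-signal cells, or -0.80 (-0.91 to -0.69), and -0.66 within bins of the share in peaks. Btg2, an anti-proliferative gene, had -0.61 (-0.81 to -0.41), Fos -0.56 (-0.74 to -0.38) and Zfp36, which encodes an RNA-destabilizing protein, -0.51 (-0.64 to -0.38). Dusp1, a phosphatase that turns off MAP kinases, had 189 and 242 CPM, or -0.29 (-0.39 to -0.18), and the zinc finger factor Egr1 182 and 231, or -0.28 (-0.38 to -0.17), though within bins of the share in peaks Egr1 was at -0.04 and Dusp1 at -0.12. Fosb, at -0.04 (-0.18 to 0.11), and Jund, at -0.09 (-0.20 to 0.01), had intervals that held 0. So did Egr2, at -0.10 (-0.30 to 0.09), Ier3, at -0.17 (-0.39 to 0.04), and Atf3, at -0.14 (-0.34 to 0.05). Within bins of the share in peaks Egr3, Btg2 and Fos lay at -0.47, -0.39 and -0.35, and Fosb and Jund at 0.04 and 0.02. Other than Dusp1, Egr1 and Nr4a1, which have the most fragments of the list, these genes were chosen after their values were seen.

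Long genes, most of them known from neurons, were higher in high-signal cells. Of 20 listed genes 19 were higher and none lower, where 12.5% and 6.93% of all genes were, with a median of 1.00 (1.02 on other autosomes). Of the 5 promoters of the list that were tested, none was higher or lower, where 5.55% and 6.41% of all tested promoters were. The median of these 5 was -0.09, and 5 promoters are too few to compare with those shares. Lrp1b, a lipoprotein receptor, had 73.4 CPM in high-signal and 23.3 in low-signal cells, or 1.72 (1.46 to 1.99), the receptor phosphatase Ptprd 160 and 57.0, or 1.56 (1.39 to 1.73), and the protocadherin Pcdh15 106 and 40.9, or 1.45 (1.25 to 1.65). Dlg2 had 264 and 225, or 0.30 (0.20 to 0.40), and Macrod2 216 and 167, or 0.44 (0.33 to 0.55), and both were at 0.12, within 1.2-fold, within bins of the share in peaks. The exception was Wwox, an oxidoreductase gene expressed in many tissues, with 285 and 299, or -0.00 (-0.09 to 0.09). Lrp1b, Ptprd and Pcdh15 were named for their size after the values were seen. The 5 genes furthest up over the whole table were also long, from 427.7 to 891.7 kb, with Grin2a, an NMDA receptor subunit, at 2.22, Galnt17 at 1.98, L3mbtl4 at 1.96, Nell1 at 1.95 and Gpr158 at 1.94.

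The size of the difference at long genes depended on the cells with few fragments in peaks. Leaving out the tenth of each group with the lowest share in peaks gave a median of 0.52 for the long neuronal genes, 0.75 for Lrp1b, 0.56 for Ptprd, 0.61 for Pcdh15 and 0.64 for Grin2a, and ranking within bins of the share in peaks gave a median of 0.40 and 1.61 for Grin2a. Galnt17, L3mbtl4, Nell1 and Gpr158 were at 1.00, 1.02, 0.98 and 1.03 within those bins, and at 0.90, 1.46, 1.10 and 1.57 without the low shares. Per cell, the list held a median of 19.9 per 10000 fragments in high-signal cells (1.73 to 109) and 15.9 in low-signal cells (1.68 to 58.6), with 16.7, 16.6 and 17.1 between. The pooled values were 25.2 and 16.6 per 10000, a wider gap than between the medians.

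**Figure D4:**
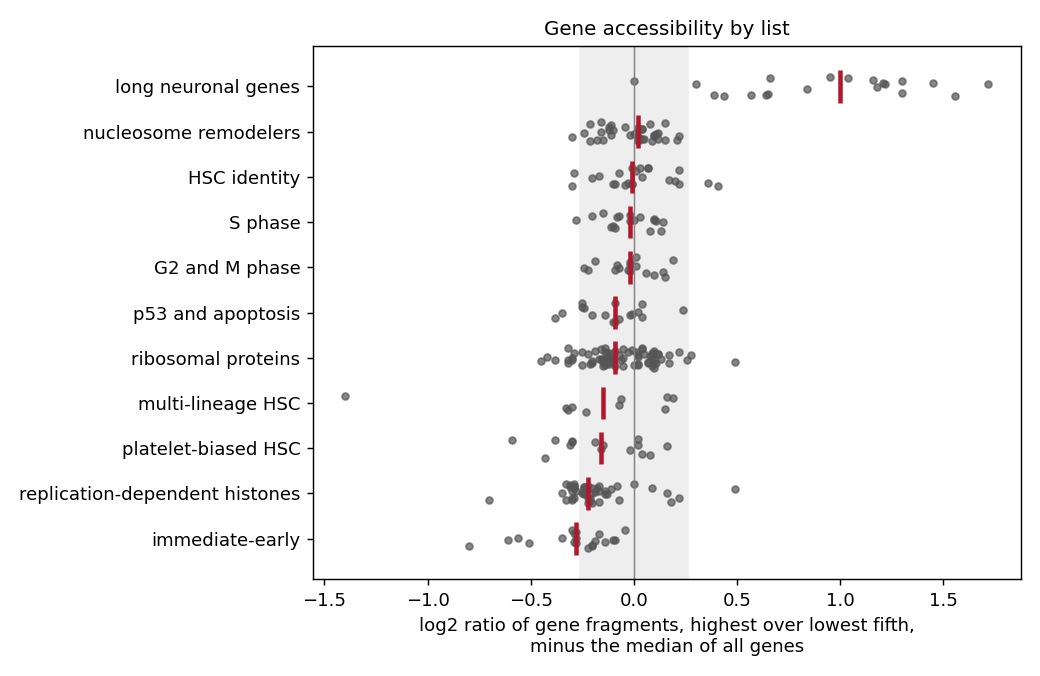
Centered log2 ratio of gene fragments, high-signal over low-signal cells (x axis), for the tested genes of 11 lists (y axis); dots are genes, red bars list medians and the grey band marks values within 1.2-fold. Long neuronal genes lie at a median of 1.00, immediate-early genes at -0.28, and the lists of HSC identity, cell cycle and nucleosome remodelers (with the other chromatin proteins named below) at between -0.02 and 0.02.

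Most genes that define HSCs lay near the level of all genes, and 2 lists of HSC lineage bias lay below it. Of 25 HSC identity genes 23 were tested, 2 were higher, where 12.5% of all genes were, the angiopoietin receptor gene Tek at 0.36 (0.02 to 0.72) and the repressor gene Gfi1b at 0.41 (0.12 to 0.72), and none was lower, with a median of -0.01. Mecom, a transcription factor that HSCs need to persist, had 449 CPM in high-signal and 475 in low-signal cells, or -0.01 (-0.08 to 0.06), Prdm16 366 and 409, or -0.09 (-0.17 to -0.02), and Runx1 325 and 358, or -0.07 (-0.15 to 0.01). Genes of platelet-biased HSCs had a median of -0.16, with none of 15 higher and 4 lower (6.93% of all genes were lower), and Pf4, Clu and Inhba were the lowest at -0.59, -0.43 and -0.38, named for their values. Of those with the most fragments, Vwf, which encodes von Willebrand factor, had 154 and 158 CPM, or 0.04 (-0.08 to 0.16), Itga2b 103 and 123, or -0.19, and Itgb3 93.8 and 96.9, or 0.02. Genes of multi-lineage HSCs had a median of -0.15 (-0.23 within bins of the share in peaks), with none of 10 higher and 4 lower, against the same 6.93%, among them Ctla2a at -1.40, the cytokine receptor Flt3 at -0.33 (-0.50 to -0.15) and the purinergic receptor P2rx7 at -0.32 (-0.48 to -0.16), whereas Satb1 had -0.07, and Cd27, Crip2 and Sox4, named for their values, had 0.19, 0.16 and 0.15 and were not called. Tek and Gfi1b were named because they alone of the identity genes passed, and neither call held throughout, with Tek at 0.16 without the low shares in peaks and Gfi1b at 0.24, within 1.2-fold, on other autosomes.

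Cell cycle genes had medians near that of all genes, of which 12.5% were higher and 6.93% lower. None of 18 tested S phase genes was higher and 1 was lower, with a median of -0.02, and of 17 G2 and M phase genes none was higher or lower, with a median of -0.02. Gins2, of the replicative helicase, had -0.15 (-0.27 to -0.04), Mcm7 -0.10, Chaf1b 0.10, Kif23 -0.24 (-0.41 to -0.08), Mki67 -0.02 and Kif11 0.15. Genes of p53 and apoptosis had a median of -0.09, with 2 of 17 lower against that 6.93%, and Bcl2l1, Sesn1 and Bcl2 at -0.10, 0.04 and 0.02.

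Genes of proteins that move, load or organize nucleosomes and chromatin had a median near that of all genes. Of 36 such genes found of 39, which include remodelers, histone chaperones, HMG proteins, Ctcf and cohesin subunits, none was higher and 1 was lower, where 12.5% and 6.93% of all genes were, with a median of 0.02, and Arid1b, a subunit of BAF complexes, had 478 and 487 CPM, or 0.04 (-0.03 to 0.11). Hmgb1 and Ep400 both had -0.11. Replication-dependent histone genes had a median of -0.22, with 1 of 46 tested higher and 9 lower, where 12.5% and 6.93% of all genes were, and Hist1h4a, with the most fragments, had 135 and 159 CPM, or -0.17 (-0.29 to -0.04), Hist1h2be -0.18 and Hist1h1a -0.08. These genes are near-identical copies in clusters, so reads of 1 copy can be placed at another or dropped. Ribosomal protein genes had 2 of 77 higher and 9 lower, against the same shares, with a median of -0.09 that was 0.05 within bins of the share in peaks, and Rps14, Rpl3 and Rpl13a had -0.15, 0.12 and -0.06. Without centering, each list median moved down by the 0.07 of the common shift, which put the remodelers at -0.05.

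The genes furthest down over the whole table after Ctla2a were Gngt2, a G protein subunit gene, with 26.3 CPM in high-signal and 55.3 in low-signal cells, or -1.0 (-1.25 to -0.75), and Cd28, known as the costimulatory receptor of T cells, with 20.8 and 42.1, or -0.95 (-1.23 to -0.67). Gm49391, which overlaps Ctla2a, had -0.86, and Dyx1c1, a factor of cilium assembly, -0.82. All 5 kept their direction within bins of the share in peaks, between -1.68 and -0.75. The promoters of Cd3e, Cd3d and Cd3g, which define T cells, held 1, 6 and 9 fragments in high-signal and none, 2 and 3 in low-signal cells. Lck, Cd2 and Themis, the rest of the 6 T cell markers, went the other way in CPM. They had 1.97, 0.369 and 0.123 CPM in high-signal and 2.66, 0.626 and 0.157 in low-signal cells.

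Across the genome, high-signal cells had relatively more fragments in AT-rich, gene-poor regions. Over 1875 bins of 1 Mb with at least 1000 fragments, the log2 ratio had an r of -0.50 with GC content and -0.39 with the number of protein-coding gene starts. GC content and these gene starts themselves had an r of 0.53. All bins share the same 2 pools of cells. Of 4 groups of bins by GC content, the lowest (36.3 to 40.6%) had a median of 0.20 after centering and the highest (45.0 to 53.7%) -0.06, with 0.01 and -0.03 between. On other autosomes the first and last were 0.19 and -0.06, and within bins of the share in peaks 0.14 and -0.04. On short fragments alone the r was -0.19, and without the low shares in peaks -0.32.

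The 3 bins furthest up were chr6:103000001-104000000, with 1 protein-coding gene start and 38.1% GC, at 1.22 (1.01 to 1.43), chr12:114000001-115000000, with none, at 1.10 (0.90 to 1.31), and chr6:109000001-110000000, with none, at 1.01 (0.82 to 1.21). Starts of other gene types were not counted, so a bin with none may still hold genes of those types. The 3 furthest down were chr7:63000001-64000000, at -0.31 (-0.38 to -0.25), chr18:75000001-76000000, at -0.27, and chr15:38000001-39000000, at -0.27, with between 4 and 6 gene starts each. The first of the 3 higher bins held 755 and 252 fragments and was at 0.35 within bins of the share in peaks, the second was at 0.57 and the third at 0.80, or at 0.78, 0.59 and 0.31 for the 3 without the low shares in peaks, and the first of the 3 lower ones held 3874 and 3748 and was at -0.23 within bins of the share in peaks.

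**Figure D5:**
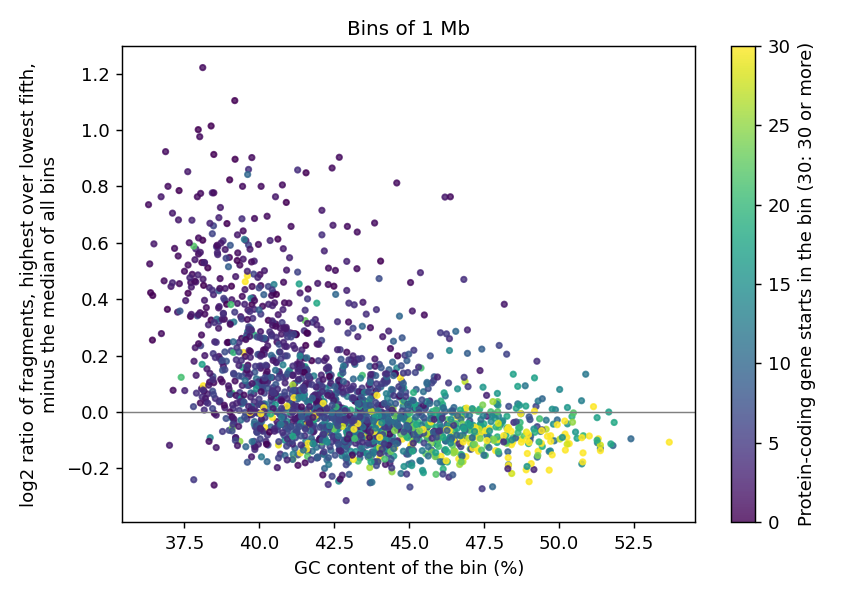
Centered log2 ratio of fragments, high-signal over low-signal cells (y axis), against GC content in percent (x axis) for 1875 bins of 1 Mb, colored by the number of protein-coding gene starts (30 or more share 1 color). Bins under 40.6% GC spread up to 1.22, and most bins over 45.0% lie near their median of -0.06, with a few gene-poor ones well above it.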

How the data were processed

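The authors deposited raw counts of fragments, reads and UMIs per barcode and the list of unique ATAC fragments, made per the file headers with Cell Ranger ARC 2.0.2 and its mm10 reference (GRCm38 coordinates), with duplicates collapsed. Whether fragment ends were shifted for the transposase offset was not stated, and no blacklist was applied. The antibody tag library was not used here, and there were 0 other columns of per-sample values. RNA was compared by totals per barcode only.

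Fragments were counted by their midpoints in promoter windows (500 bp to each side of the start of 20807 protein-coding genes), in the 50000 most covered tiles of 500 bp and in genes with 2000 bp upstream. Sums over the cells of each group were divided by its autosomal fragments, and log2 ratios were centered on the median of features with at least 200 fragments. This minimum was set on the sum of both groups, so a feature could reach it mainly through the group where it was higher. A feature was called past 1.2-fold with an interval that left out 0. Intervals are exact Poisson or binomial ones at 95%. Bins of 1 Mb needed 1000 fragments.

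The 3 genes of each list with the most fragments were named, as were the 10 highest and lowest promoters and the 5 highest and lowest genes and tiles among features called and again past 1.2-fold when cells were ranked on the autosomes of the other parity. The cells, lists and tests were chosen with earlier results of these data known. Doublets were kept, and left out in 1 alternative. Alternatives also varied the ranking, the share of cells, length limits, depth, windows, centering, fold and minimum, and 4 were added after the data were seen. The steps were tested on simulated data. Python 3.11.15, numpy 2.4.6, scipy 1.17.1, pandas 2.3.3, numba 0.67.0 and matplotlib 3.10.9 were used.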

Additional observations from a re-analysis of the deposited data

How the results depend on the processing

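All values come from 1 preparation with 1 library of each kind, so no spread between animals could be measured and no test was made. No paired analysis was possible because the groups are cells of 1 preparation and carry no replicate numbers. Most distal tiles had fewer than 200 fragments, so that calls cover 1319 of 50000 tiles. Ranking within bins of the share in peaks and leaving out low shares in peaks, the deepest cells or repeat-like tiles were chosen after seeing the data. RNA and peak columns are not split by chromosome and have no value on other autosomes. Of the single features and other lists, 1050 values moved by no more than their counting interval under an alternative, 137 moved further, and 0 called values changed sign. Uncalled values near 0 did change sign in places, such as the ribosomal protein list, from -0.09 to 0.05 within bins of the share in peaks.

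The ratio of median UMIs was 1.1 in the main comparison and was 0.879 within bins of the share in peaks. The difference in the intronic share of UMIs in percentage points was -2.82 in the main comparison and was -2.2 within bins of depth, -2.53 ranked on 3000 fragments a cell, -2.19 over the outer groups of 1036 cells, -3.34 over the outer groups of 311 cells and -3.25 with signal limits of 180 to 250 bp over under 100 bp. It was -2.4 in cells over 6000 fragments in peaks, -3.05 without marked doublets, -0.473 within bins of the share in peaks and -3.04 without the low shares in peaks. The difference in the share in peaks in percentage points was -9.27 in the main comparison and was -8.93 within bins of depth and ranked on 3000 fragments a cell, -6.65 over the outer groups of 1036 cells, -13.9 over the outer groups of 311 cells, -9.13 with signal limits of 180 to 250 bp over under 100 bp and -8.72 in cells over 6000 fragments in peaks. It was -7.43 without marked doublets, -2.93 within bins of the share in peaks, -6.2 without the low shares in peaks and -9 without the deepest cell of each group. The summed log2 ratio of promoters was -0.21 in the main comparison and was -0.20 within bins of depth, on other autosomes, ranked on 3000 fragments a cell, with signal limits of 180 to 250 bp over under 100 bp and without the deepest cell of each group, -0.14 over the outer groups of 1036 cells and without the low shares in peaks, -0.34 over the outer groups of 311 cells, -0.19 in cells over 6000 fragments in peaks and with 1000 bp to each side and -0.16 without marked doublets. It was -0.04 within bins of the share in peaks and -0.06 on short fragments. The summed log2 ratio of distal tiles was -0.24 in the main comparison and was -0.23 on other autosomes, in cells over 6000 fragments in peaks and without the deepest cell of each group, -0.22 ranked on 3000 fragments a cell, -0.17 over the outer groups of 1036 cells and on short fragments, -0.33 over the outer groups of 311 cells and -0.19 without marked doublets. It was -0.12 within bins of the share in peaks, -0.16 without the low shares in peaks and -0.24 without the 6 repeat-like tiles. The summed log2 ratio of genes was -0.07 in the main comparison and was -0.05 over the outer groups of 1036 cells and without marked doublets, -0.11 over the outer groups of 311 cells, -0.07 with signal limits of 180 to 250 bp over under 100 bp, -0.06 in cells over 6000 fragments in peaks and without the deepest cell of each group and -0.02 within bins of the share in peaks. It was -0.04 without the low shares in peaks and -0.03 on short fragments. The difference in the share of fragments of 295 to 440 bp in percentage points was 1.83 in the main comparison and was 1.78 on other autosomes, 1.76 ranked on 3000 fragments a cell, 1.35 over the outer groups of 1036 cells, 2.57 over the outer groups of 311 cells and 1.77 with signal limits of 180 to 250 bp over under 100 bp. It was 1.73 in cells over 6000 fragments in peaks, 1.65 without marked doublets, 1.21 within bins of the share in peaks and 1.41 without the low shares in peaks. The r with GC content over bins of 1 Mb was -0.50 in the main comparison and was -0.54 over the outer groups of 1036 cells, -0.45 over the outer groups of 311 cells, -0.40 without marked doublets, -0.32 without the low shares in peaks and -0.19 on short fragments. The number of promoters higher was 424 in the main comparison and was 273 over the outer groups of 311 cells, 963 counting fragment ends, 250 on short fragments, 30 without centering and 27 past 1.5-fold. It was 127 with at least 500 fragments and 694 without a minimum. The number of promoters lower was 490 in the main comparison and was 308 over the outer groups of 311 cells, 906 counting fragment ends, 2627 without centering, 31 past 1.5-fold and 194 with at least 500 fragments. It was 916 without a minimum. The number of distal tiles higher was 159 in the main comparison and was 335 over the outer groups of 1036 cells, 40 over the outer groups of 311 cells, 753 counting fragment ends, 78 on short fragments and 24 without centering. It was 39 past 1.5-fold, 26 with at least 500 fragments and 1704 without a minimum. The number of distal tiles lower was 203 in the main comparison and was 482 over the outer groups of 1036 cells, 37 over the outer groups of 311 cells, 963 counting fragment ends, 76 on short fragments and 686 without centering. It was 60 past 1.5-fold, 20 with at least 500 fragments and 2957 without a minimum. The number of genes higher was 1654 in the main comparison and was 705 within bins of the share in peaks, 2494 counting fragment ends, 583 on short fragments, 432 past 1.5-fold and 846 with at least 500 fragments. The number of genes lower was 915 in the main comparison and was 573 over the outer groups of 1036 cells, 1788 without centering, 43 past 1.5-fold, 458 with at least 500 fragments and 1700 without a minimum. The median of the immediate-early genes was -0.28 in the main comparison and was -0.21 over the outer groups of 1036 cells, -0.14 within bins of the share in peaks, -0.23 without the low shares in peaks, -0.17 on short fragments and -0.25 with at least 500 fragments. It was -0.33 without a minimum. The median of the long neuronal genes was 1.00 in the main comparison and was 0.69 over the outer groups of 1036 cells, 1.54 over the outer groups of 311 cells, 0.83 without marked doublets, 0.40 within bins of the share in peaks and 0.52 without the low shares in peaks. It was 0.93 without the deepest cell of each group, 0.50 on short fragments and 0.94 without a minimum.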
